A study of Homo sapiens with 15 samples.

Results

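The comparison described here sets 3 arrays of IMR32 cells taken 72 h after induction of a hairpin against CDK2 beside 3 arrays taken at the start, at 0 h. The arrays were chosen by their time labels, and they are 6 of the 15 arrays of the series. IMR32 is an established human neuroblastoma line with amplified MYCN. All 6 arrays come from 1 clone, IMR32-pcDNA6-CDK2sh, which carries the tetracycline repressor behind a constitutive CMV promoter and the pTER vector with a hairpin against nucleotides 546 to 566 of the CDK2 mRNA. Doxycycline at 100 ng/ml releases the hairpin. The remaining 9 arrays are 3 each at 8, 24 and 48 h of the same clone. No unit stands beside the times in the labels, and hours are taken from what is known of the study. The question was which transcripts differ after 3 days of CDK2 depletion. No control hairpin and no untreated culture of the same age was analysed here, so effects of the knockdown, the drug and culture time cannot be told apart. Whether the 3 arrays of a group are separate cultures is not stated, and the p-values then measure only the spread between these arrays, which may be technical.

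CDK2 is a kinase that acts with cyclin E at the entry into S phase and with cyclin A during it. With CDK4 and CDK6 it phosphorylates the RB family of pocket proteins, which in their unphosphorylated state hold E2F factors on the promoters of replication genes. The DREAM complex, which contains pocket proteins, E2F4 or E2F5 and the MuvB core, represses the mitotic genes through a short promoter element, the cell-cycle genes homology region or CHR. The p53 protein feeds into the same system through CDKN1A, the CDK inhibitor p21. IMR32 belongs to the noradrenergic type of neuroblastoma, whose identity rests on factors of the sympathetic lineage such as the HAND and GATA proteins.

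Each value is a linear signal intensity of a probe set, scaled by the authors so that the trimmed mean of every array is about 100. The number of arrays limits the precision. The median signal over probe sets was 15.7 to 17 at 0 h and 17.3 to 20.5 at 72 h. The ACTB probe sets gave a 3′/5′ signal ratio of 1.10 to 1.19 at 0 h and of 1.21 to 1.35 at 72 h, and those of GAPDH gave 0.992 to 1.03 and 1.01 to 1.04. The control probe set of 18S ribosomal RNA read 156.6, 128.4 and 105.3 at 0 h and 670.3, 397.4 and 275.6 at 72 h, and the 3 arrays at 72 h lay above all other arrays of the series. The ACTB ratio, the median signal and the 18S signal were thus higher at 72 h, and their part in the results below was not tested. Changes are differences of log2(signal + 16) between group means, which understates the change of dim genes. They were tested with limma over 11774 genes and all 15 arrays, with Benjamini-Hochberg adjustment at 0.05.

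The targeted transcript was lower on every array at 72 h. CDK2 read 245.5, 236 and 213.7 at 0 h and 30.0, 40.0 and 20.2 at 72 h. The means went from 232 ± 16.3 to 30.1 ± 9.90 (SD, n = 3 each), a change of -2.45 ± 0.14 (SE) on the log2 scale (adjusted p = 1.2e-10). From 48 h to 72 h CDK2 changed by a further -0.50 (adjusted p = 0.03).

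At 72 h 6531 of the 11774 genes tested (55.5%) passed limma's test against 0 h. Of all tested genes 32.8% were higher (3861) and 22.7% were lower (2670). A log2 change of at least 1 in addition was reached by 1212 genes (10.3%), of which 629 were higher (5.34%) and 583 lower (4.95%). At a change of at least 2 there were 60 higher and 141 lower genes. The 3 arrays at 72 h did not overlap the 3 at 0 h in 61.4% of genes, all above in 36.3% and all below in 25.1%. The median change of all genes was 0.10. With each array centred on its own median it was -0.01, and the split became 2735 higher to 3250 lower. The genes that rose by at least 1 had a median signal of 63.1 at 0 h and 197.2 at 72 h, and 71 of them began below the filter signal of 16.6. The genes that fell by at least 1 went from a median of 407.6 to 106.8, and 39 of them ended below it. In a bulk culture, fewer cells of a kind and less RNA per cell cannot be told apart.

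Most of the 15 largest falls were genes of replication and cell division. HMMR, which encodes a spindle-associated hyaluronan receptor, read 1052, 968.7 and 796.2 at 0 h and 43.3, 25.5 and 16.6 at 72 h. It changed by -4.46 ± 0.22 (SE), the greatest fall of all genes tested, and its second probe set gave -3.67. PRC1, the protein that bundles microtubules at the spindle midzone, read 1574, 1589.5 and 1380.3 at 0 h and 156, 142.3 and 104.1 at 72 h. CDK1, the kinase of mitosis, read 2548, 2562 and 2006 at 0 h and 305.8, 299.3 and 157.4 at 72 h. No array at 72 h reached the lowest array at 0 h for any of these 3 genes, which the rule for naming the largest changes required. The other falls of this group were PBK, a mitotic kinase (-3.63), MCM10, which helps start replication forks (-3.33), SHCBP1, a midbody protein (-3.15), ZNF367 (-3.09), ANLN, the scaffold of the contractile ring (-3.06), KIF11, the kinesin that separates spindle poles (-3.05), NCAPH, a condensin subunit (-3.04), CEP55, a factor of abscission (-3.02), BIRC5, the survivin of the chromosomal passenger complex (-3.01), E2F8, a repressive E2F (-2.97), and CDCA3, which takes part in mitotic entry (-2.96). IGFBP5, a secreted binding protein of insulin-like growth factors, fell as far, by 3.06.

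The 15 largest rises were of mixed kinds. TMT1A, a methyltransferase of lipid droplets and endoplasmic reticulum, read 61.7, 58.6 and 42.1 at 0 h and 1411, 1528 and 2073 at 72 h, a change of 4.58 ± 0.17 (SE). Its 3 other probe sets gave 0.31 to 3.28, and 2 of them were called higher. RET, the receptor tyrosine kinase for ligands of the GDNF family, read 15.6, 28.7 and 44.8 at 0 h and 512.1, 420.0 and 686.6 at 72 h, and its 2 other probe sets gave 1.73 and 1.97. HDAC9, a class IIa histone deacetylase, read 11.3, 6.3 and 13.5 at 0 h and 256.9, 282.5 and 358.9 at 72 h, with no other probe set past the filter. LUM, the matrix proteoglycan lumican, read 17.4, 13.7 and 10.0 at 0 h and 315.2, 395 and 328.7 at 72 h. By their means HDAC9 and LUM began below the filter signal and passed the filter through the later times. In all 4 genes the 3 arrays at 72 h lay above every array at 0 h, which the rule for naming the largest changes required. The arrays of the 2 times were apart in 61.4% of all genes. Histone genes took 4 of the 15 places, with H2AC25 at 4.21, H2AC6 at 3.99, H2BC5 at 3.28 and H2BC12 at 2.83. Neuronal genes were GPM6A, a membrane glycoprotein of growth cones (3.09), DCX, the microtubule protein of migrating neurons (2.93), and CNTN3, an adhesion molecule of the contactin family (2.93). The rest were MUC19, a gel-forming mucin (3.85), MYCT1 (3.57), SLC44A5, of the choline transporter-like family (3.33), and JUP, the junctional plakoglobin (2.80).

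**Figure D1:**
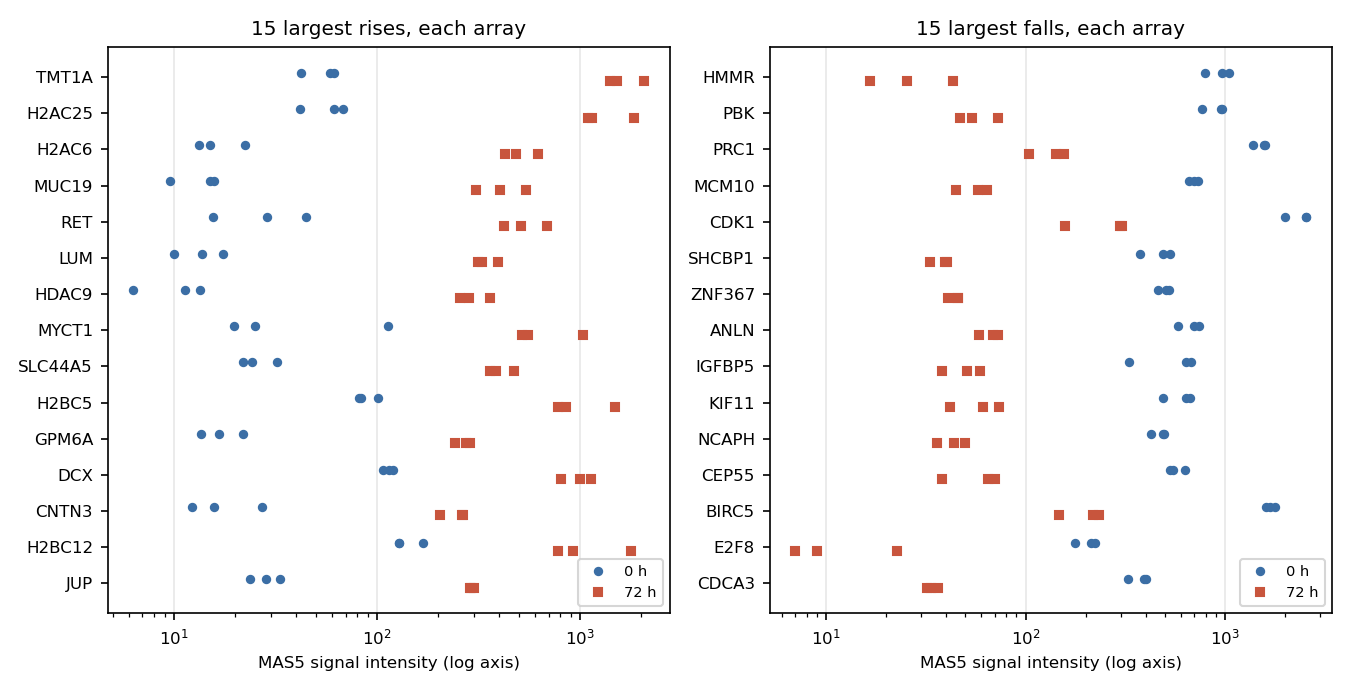
Signal intensity of the 15 genes with the largest rises and the 15 with the largest falls on each of the 3 arrays at 0 h and the 3 at 72 h, on a log axis. Each point is 1 array, and the arrays of the 2 times do not overlap for any gene shown, since the genes were chosen by that rule.

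The start-site windows of the members show which known elements lie at the genes that fell and rose. The 6 sequences here are the 160 bases before the RefSeq start site (GRCh38.p14, 5′ to 3′ on the gene's strand). They are of 3 mitotic genes, 2 replication genes and 1 histone gene among the members. The mitotic genes were picked for holding both CHR and CCAAT matches and the replication genes for holding E2F letters. The difference between these windows thus comes from the choice. Capitals mark the letters of 3 motif families searched on both strands. The CHR was searched as TTTGAA, with TTCGAA as its second form. The box bound by the factor NF-Y was searched as CCAAT. The E2F family was searched in 4 forms, which were TTTCCCGC, TTTGGCGC, TTTCGCGC and TTTGCCGC.
HMMR, chr5:163460472-163460631, plus strand: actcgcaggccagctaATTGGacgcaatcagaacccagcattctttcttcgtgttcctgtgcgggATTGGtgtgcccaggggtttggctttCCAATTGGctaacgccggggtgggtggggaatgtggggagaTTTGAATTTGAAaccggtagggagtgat
PRC1, chr15:90994536-90994695, minus strand: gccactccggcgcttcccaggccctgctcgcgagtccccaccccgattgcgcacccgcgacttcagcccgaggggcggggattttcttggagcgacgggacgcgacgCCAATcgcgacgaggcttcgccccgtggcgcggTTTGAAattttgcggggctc
KIF11, chr10:92592970-92593129, plus strand: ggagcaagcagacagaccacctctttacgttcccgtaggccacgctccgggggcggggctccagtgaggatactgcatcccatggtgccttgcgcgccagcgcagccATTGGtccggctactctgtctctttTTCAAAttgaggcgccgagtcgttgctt
MCM6, chr2:135876444-135876603, minus strand: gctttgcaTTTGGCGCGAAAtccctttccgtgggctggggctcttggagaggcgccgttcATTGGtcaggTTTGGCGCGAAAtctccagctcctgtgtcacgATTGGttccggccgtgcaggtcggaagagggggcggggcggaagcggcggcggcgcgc
PCNA, chr20:5126623-5126782, minus strand: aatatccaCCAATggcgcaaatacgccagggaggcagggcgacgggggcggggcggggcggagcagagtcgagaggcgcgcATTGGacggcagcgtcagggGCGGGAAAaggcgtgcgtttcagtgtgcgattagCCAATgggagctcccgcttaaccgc
H2BC5, chr6:26157961-26158120, plus strand: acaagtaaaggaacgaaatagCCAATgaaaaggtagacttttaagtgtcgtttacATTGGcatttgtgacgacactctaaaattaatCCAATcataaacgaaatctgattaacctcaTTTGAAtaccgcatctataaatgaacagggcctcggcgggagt

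The mitotic windows printed, picked for these matches, carry a CHR close to the start with CCAAT upstream of it. In HMMR the CHR letters begin 28 and 22 bases before the start, in KIF11 28 bases before it and in PRC1 20 bases before it. In PRC1 and KIF11 the CCAAT letters begin 53 bases before the start. The replication windows printed, picked for E2F letters, carry them at 152, 148, 90 and 86 bases before the start of MCM6 and at 59 bases before that of PCNA. Both hold CCAAT as well. MCM6 also has CHR letters 246 bases before the start, outside the bases printed. MCM10, the replication gene that fell furthest, has CCAAT but no E2F match in its window. The bases printed for the histone gene H2BC5 hold 3 CCAAT matches, beginning 139, 105 and 73 bases before the start, and CHR letters at 43 bases. Another CCAAT match of H2BC5 begins 167 bases before the start, outside the bases printed. A match is a run of letters and was not tested as a binding site.

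Windows of 250 bases before to 50 bases after the start were found for 9657 of the 11774 genes tested. A CHR match was in 73.2% of the 41 windows of spindle and cytokinesis genes (30), in 56.3% of the 32 windows of kinetochore genes (18) and in 4.76% of the 42 windows of replication genes. The share was 11.1% over the genes tested and 16.6% over all 27305 windows of the table. E2F letters were in 42.9% of the replication windows (18), 12.5% of the kinetochore windows and 4.88% of the spindle windows, beside 5.37% over the genes tested and 3.33% over all windows. CCAAT was in 75.6% of spindle, 65.6% of kinetochore, 57.1% of replication and 81.0% of the 21 histone windows, beside 37.1% over the genes tested and 35.7% over all windows. Windows of p53-induced genes held CHR in 3.45%, CCAAT in 41.4% and E2F letters in 17.2% of 29. The histone windows held CHR in 38.1% (8) and E2F letters in 23.8% (5). The CHR matches of the spindle genes lay near the start, 26 of 30 within 75 bases before to 25 after it, a range chosen after the positions were seen. In the genes tested 3.13% of windows (302) had a CHR there.

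Over sets defined by the change at 72 h, which the comparison itself chose, the shares were as follows. CHR and CCAAT together were in 37.3% of the 118 windows of genes lower by at least 2 and in 18.2% of the 466 windows of genes lower by at least 1, beside 4.67% over the genes tested. Genes higher by at least 1 had both in 3.22% of 497 windows, and those higher by at least 2 in 10.6% of 47. The shares with both were thus greater at the larger cut-off in either direction. E2F letters were in 17.8% and 14.8% of the sets lower by at least 2 and by at least 1, and in 2.13% and 3.62% of the sets higher by as much. These are descriptions, and motif families overlapped in 11 windows of the genes tested.

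**Figure D2:**
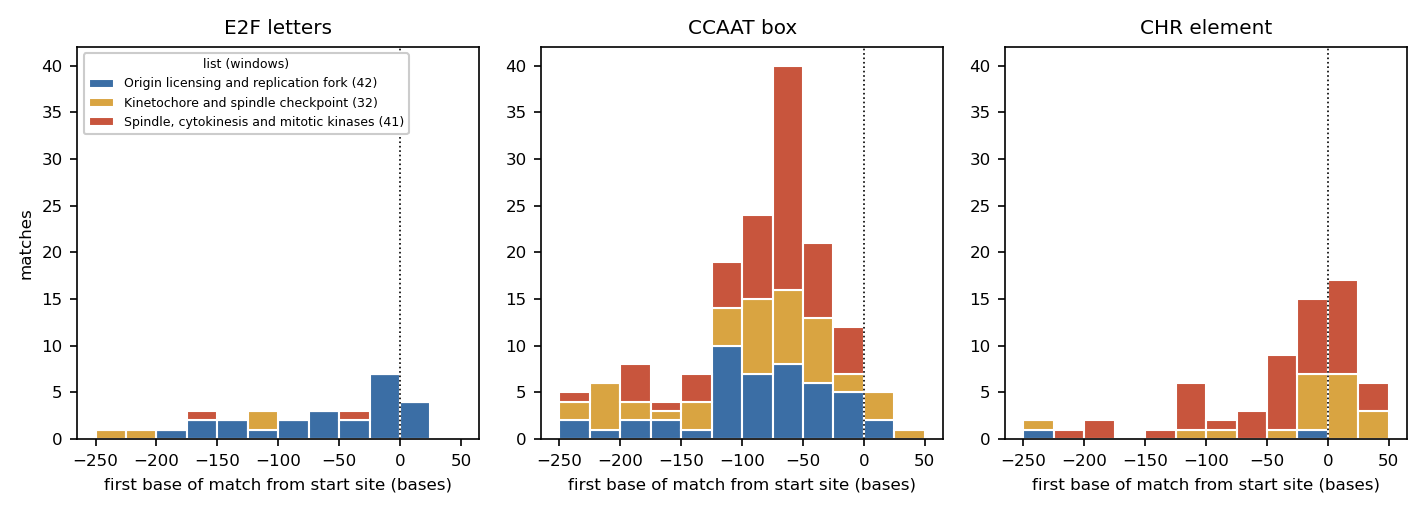
Counts of E2F, CCAAT and CHR matches by the distance of their first base from the start site (bases, bins of 25), stacked for the windows of 42 replication, 32 kinetochore and 41 spindle genes, with the start at the dotted line. E2F matches are mostly from replication genes, and CHR matches are mostly from spindle and kinetochore genes and gather at the start.

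The CDKs, cyclins and their regulators were lower as a group, mainly in the part of the cycle from late G1 onward. Of 27 tested of 31 listed, 18 fell, 2 rose and 7 were not called, with a median of -0.90. Over all genes tested 22.7% were lower and 32.8% higher, the shares to set beside the counts of this list and those below. CCNA2, cyclin A2, the partner of CDK2 in S phase, read 656.5, 701 and 568.5 at 0 h and 117.4, 122.4 and 87.8 at 72 h, a change of -2.40 ± 0.13 (SE). CCNE2, the second cyclin E, changed by -2.43 and CCNE1 by -0.90. CCNB1 and CCNB2, the mitotic cyclins, changed by -2.40 and -2.38. The phosphatases that remove inhibitory phosphates from CDKs, CDC25A and CDC25C, changed by -2.64 and -2.46, and the inhibitory kinase WEE1 changed by -1.74. CDKN3, a phosphatase of CDK2, fell by 2.56.

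Among kinases, cyclins and inhibitors of early G1, those given here rose or were not called. CDK4 was at -0.07 ± 0.07 (adjusted p = 0.4), CCND1, cyclin D1, at -0.19 ± 0.08 (adjusted p = 0.06) and CDKN1B, the inhibitor p27, at -0.01 ± 0.12 (adjusted p = 0.96), none of them called by limma. With the arrays centred, CCND1 was called lower. CDK6 rose by 0.64. CDKN1A read 564.4, 505.5 and 522.4 at 0 h and 2019, 2042 and 1906 at 72 h, and all arrays at 72 h lay above all at 0 h (change 1.88 ± 0.10, adjusted p = 2.5e-11).

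The E2F, pocket protein and MuvB genes went both ways. Of 20 tested, 13 fell, 3 rose and 4 were not called (median -0.49). The activators E2F1 and E2F2 went from 333 to 96.0 and from 171 to 35.9, changes of -1.64 and -1.85. The factors that drive mitotic genes, MYBL2 and FOXM1, changed by -2.92 and -2.91, FOXM1 from 415 to 42.0. RBL1, the pocket protein p107, fell by 1.14. RBL2, the pocket protein p130 of quiescent cells, rose by 0.50, E2F5, a repressive E2F of DREAM, by 0.96 and the dimer partner TFDP2 by 1.04. E2F4 was at 0.02 and E2F3 at -0.20, neither of them called.

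Genes of origin licensing and the replication fork fell almost throughout. Of 48 tested 45 fell, 38 of them by at least 1, 1 rose and 2 were not called, with a median of -1.65. CDC6, which loads the MCM helicase on origins, read 571.7, 578.8 and 591.6 at 0 h and 62.3, 62.9 and 59.8 at 72 h. CDC45 and GINS3, parts of the active helicase, changed by -2.83 and -2.78. The helicase subunits themselves fell unequally, with changes of -2.46 for MCM6, -2.34 for MCM5, -2.0 for MCM4, -1.57 for MCM3, -1.36 for MCM7 and -1.08 for MCM2. PCNA, the sliding clamp, went from 2388 ± 41.3 to 855 ± 11.6 (SD, n = 3 each) and fell by 1.47. Among origin recognition subunits ORC1 fell by 2.59, ORC2 was at -0.10 and not called, and ORC4 rose by 0.40. POLD2, a subunit of DNA polymerase delta, was at -0.26 and not called, while POLE2, of polymerase epsilon, fell by 2.13.

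Most genes of deoxynucleotide synthesis fell with replication, and 1 rose. Of 10 tested 8 fell, 1 rose and 1 was not called (median -1.35). RRM2, the S-phase small subunit of ribonucleotide reductase, read 1819, 1801 and 1473 at 0 h and 266, 218.6 and 154.3 at 72 h. RRM2B, the small subunit that p53 induces, went the other way and read 233.6, 222.8 and 215.2 at 0 h and 1219, 1269 and 1175 at 72 h. The changes were -2.93 ± 0.18 and 2.37 ± 0.10 (SE), and neither pair of groups overlapped. RRM1, the large subunit, changed by -2.16, TK1, thymidine kinase, by -2.57 and TYMS, thymidylate synthase, by -1.43.

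Of 29 tested genes of recombination, the Fanconi pathway and the checkpoints, 26 fell and 3 rose (median -1.44). EXO1, a nuclease of end resection, changed by -2.88, RAD51AP1 by -2.66 and BLM, the Bloom helicase, by -2.37. BRCA1 read 641.8, 667.4 and 665.2 at 0 h and 103.1, 88.7 and 70.9 at 72 h, a change of -2.71 ± 0.13 (SE), with the arrays of the 2 times apart. CHEK1 and CHEK2, the checkpoint kinases, changed by -1.55 and -1.14. The apical kinases were the exception, ATM at 0.85 and ATR at 0.22, both called higher, as was FANCF (0.61). With the arrays centred, 2 of the 3 rises remained called.

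Genes of the mitotic spindle and of cytokinesis fell further than any other list described here by the median. Of 47 tested 46 fell, 44 of them by at least 1, and 1 rose, with a median of -2.46. DLGAP5, a spindle protein, changed by -2.90, CDC20, the activator of the anaphase-promoting complex, by -2.88, ASPM, a protein of spindle poles, by -2.90 and NEK2, a centrosome kinase, by -2.58. The Aurora kinases differed, with AURKB at -2.67 and AURKA at -1.85. PLK1 changed by -2.67 and PLK4, the kinase of centriole duplication, by -2.38. CKAP5, a microtubule polymerase, fell by 0.45 only. KIF1C, a kinesin of vesicle transport, was the member that rose, by 1.06.

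The kinetochore list was alike. Of 39 tested 38 fell, 33 by at least 1, none rose and 1, MAD1L1, was at 0.24 and not called, with a median of -2.03. SPC25 and NUF2, both of the NDC80 complex, changed by -2.90 and -2.88. BUB1B, a kinase of the spindle checkpoint, read 670.3, 662.4 and 587.2 at 0 h and 83.6, 88.4 and 49.5 at 72 h. HJURP, the chaperone that loads the centromeric histone, changed by -2.82 and CENPA, that histone, by -1.69. BUB3, which also has roles outside the checkpoint, fell by 0.46.

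Condensin, cohesin and chromosome genes fell as a list, over a wide range from NCAPH (-3.04) to TOP2B (0.29). Of 21 tested 18 fell, 11 by at least 1, 1 rose and 2 were not called (median -1.0). NCAPG, of condensin I, changed by -2.89, CDCA5, the sororin that protects cohesion, by -2.62 and MKI67, the Ki-67 protein, by -2.28. TOP2A, the topoisomerase of dividing cells, read 1189, 1223 and 1020.4 at 0 h and 193.9, 195.3 and 176.6 at 72 h. TOP2B, its counterpart in non-dividing cells, was called higher, but with the arrays centred no member of the list was called higher. The cohesin subunits RAD21 and SMC3 were at -0.47 and -0.06, the latter not called.

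**Figure D3:**
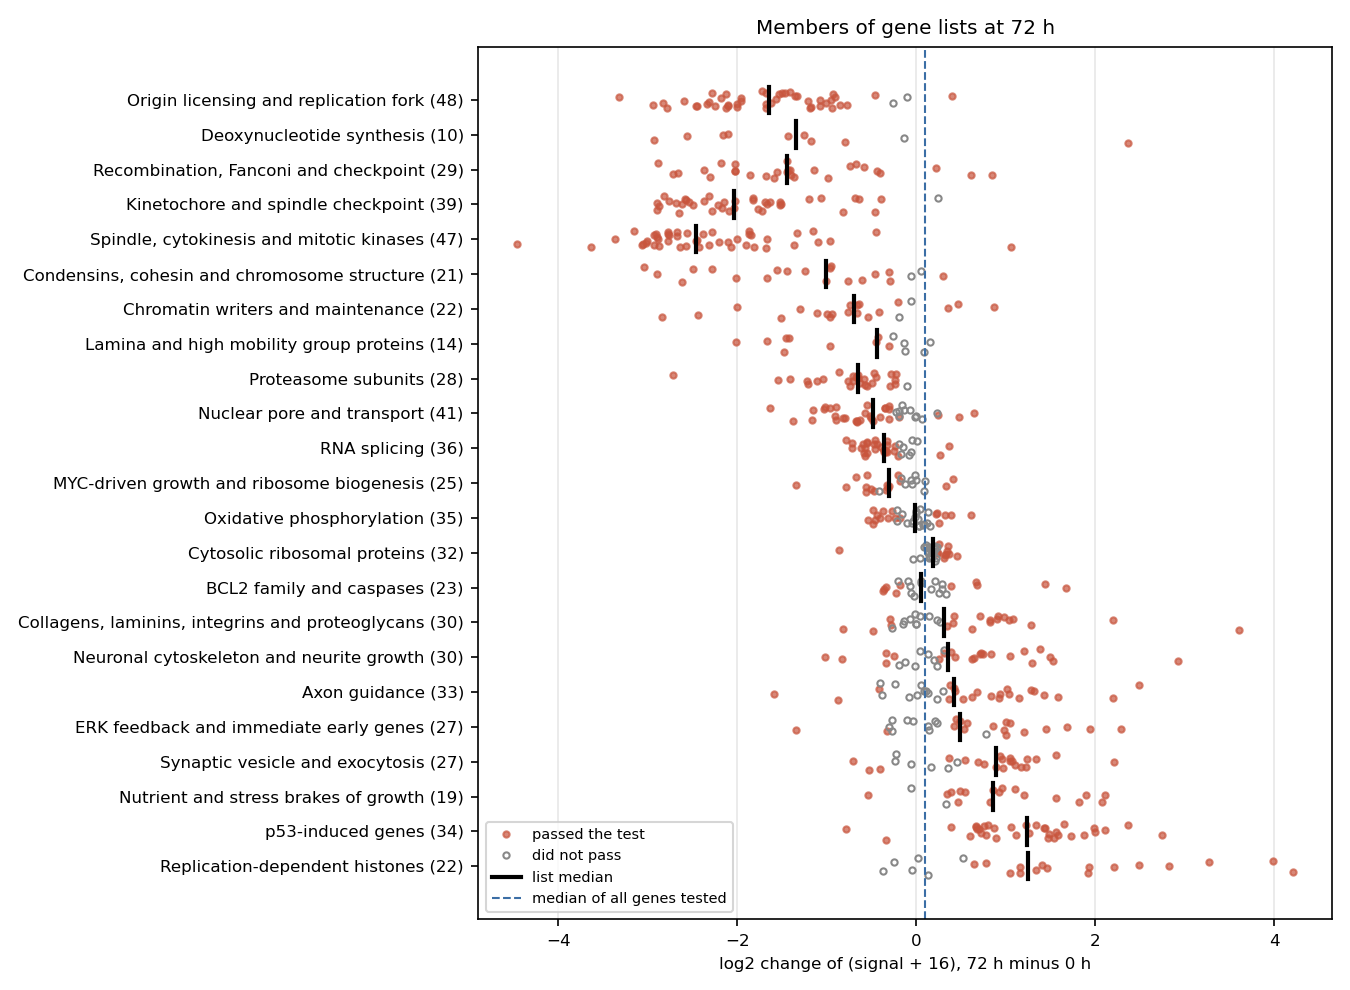
Log2 change at 72 h against 0 h of each tested member of 23 gene lists, filled where it passed the test, with the list's median as a bar and the median of all genes as a dashed line. Spindle genes have a median of -2.46 and replication genes of -1.65, p53-induced genes of 1.24 and replication-dependent histone genes of 1.25, beside 0.10 over all genes.

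Chromatin writers and maintenance factors fell less. Of 22 tested 17 fell, 7 by at least 1, and 3 rose (median -0.70). ATAD2, a bromodomain ATPase, changed by -2.84, UHRF1, which guides maintenance methylation, by -2.44, ASF1B, a histone chaperone, by -2.0 and HAT1, a histone acetyltransferase, by -1.51. EZH2, the methyltransferase of Polycomb complex 2, read 697.9, 715.9 and 734.1 at 0 h and 392.6, 431.9 and 425.9 at 72 h, a change of -0.76 ± 0.08 (SE). EZH1, its paralogue of non-dividing cells, rose by 0.87, as did DNMT3A, a de novo DNA methyltransferase, by 0.47. DNMT1, the maintenance enzyme, fell by 0.94.

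In the nuclear lamina and high mobility group list 9 of 14 tested fell, none rose and 5 were not called (median -0.44). LMNB1, lamin B1, read 926.9, 677.7 and 793 at 0 h and 182.6, 276.7 and 121.2 at 72 h, with no overlap and a change of -2.02 ± 0.24 (SE). HMGB3 changed by -1.67, TMPO, which encodes the LAP2 proteins, by -1.48 and HMGB2, a chromatin protein that bends DNA, by -1.46. LMNA was at 0.16 and HMGA1 at -0.14, neither of them called.

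Replication-dependent histone genes moved against the replication genes. Their mRNAs normally end in a stem-loop without a poly(A) tail, and which forms the arrays read was not tested. The 18S ribosomal RNA, which also has no such tail, read higher at 72 h as given above, and its part in this result was not tested. Of 63 listed 22 were tested and 17 lay below the filter. Of the tested genes 16 were higher, 14 of them by at least 1, none were lower and 6 were not called (median 1.25). With the filter at the 75th percentile, which tests fewer genes, 5 were higher. H2AC6 read 13.3, 22.5 and 15 at 0 h and 428.5, 483.4 and 617.5 at 72 h. H2BC12 read 127.8, 128 and 167.8 at 0 h and 782.8, 928 and 1789 at 72 h, a change of 2.83 ± 0.26 (SE). H1-2, a linker histone, went from 59.3 to 272 and H2BC21 from 24.4 to 178. H4C11 was at 0.02, H3C11 at -0.05 and H1-3 at -0.37, none of them called. Histone genes are near-identical copies, so how much each contributes to a probe set is uncertain. Members that were dim at 0 h, such as H2AC8 (from 2.77 to 92.5), passed the filter through the later times, and the count is a description.

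The factors that process and replace these histones fell or were not called. Of 14 tested 8 fell and none rose (median -0.34). SLBP, which binds the histone stem-loop, fell by 1.99, from 1517 to 369.5. H2AX, the variant phosphorylated at DNA breaks, changed by -1.36, H2AZ1, of the H2A.Z variants, by -0.96 and CASP8AP2, a factor of histone gene transcription, by -0.97. NPAT, the histone gene activator that CDK2 phosphorylates, was at 0.03 and not called.

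Among histone deacetylases HDAC9, below the filter signal at 0 h as given above, had the largest change. Of 18 tested 10 were called higher and 2 lower (median 0.28), which became 5 and 4 with the arrays centred and 6 and 3 after quantile normalisation. SIRT4, a mitochondrial sirtuin, rose by 1.16 and HDAC10 by 0.62. HDAC5 was called higher (0.72), but its other probe set was at -0.22 and not called. HDAC2 (-0.44) and SIRT1 (-0.33) fell.

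Genes induced by p53 rose. Of 34 tested of 43 listed, 32 rose, 20 of them by at least 1, and 2 fell, with a median of 1.24, and the counts were the same under both other scalings. PURPL, a long non-coding RNA, read 23.9, 14.2 and 18.2 at 0 h and 260.1, 225.4 and 171.5 at 72 h. SESN1, a sestrin that restrains mTORC1, read 92.8, 88.5 and 84.4 at 0 h and 458.4, 410.4 and 439 at 72 h, and CYFIP2, an actin regulator, went from 250.4 to 1044. The arrays of the 2 times were apart for all 3. MDM2, the ubiquitin ligase of p53, went from 507 to 1106, a change of 1.11 ± 0.11 (SE), and FAS, the death receptor, rose by 1.44. ZMAT3 and PLK2 rose by 1.73 and 1.99. The members that fell were PMAIP1, which encodes the death protein NOXA (-0.34), and TP53I11 (-0.79). GDF15, counted among the rises, began below the filter signal and passed the filter through the later times.

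Most genes in the list of brakes on growth that respond to nutrients and stress rose too. This list also holds IRS2 and INSR, genes of insulin signalling that are not brakes. Of 19 tested 16 rose, 7 by at least 1, 1 fell and 2 were not called (median 0.86), with SESN1 and SESN2 shared with the p53 list. DDIT4, an inhibitor of mTORC1, rose by 2.08, SESN3, a sestrin regulated by FOXO factors, by 1.89 and TXNIP, the thioredoxin-interacting brake on glucose uptake, by 1.82, from 69.6 to 319. FOXO1 and FOXO3 rose by 0.86 and 0.82. PIK3IP1, an inhibitor of PI3 kinase, rose by 1.20. KLF6 fell by 0.54.

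The BCL2 family and caspases showed no common direction. Of 23 tested 5 were higher, 5 lower and 13 not called (median 0.05, or -0.06 with the arrays centred). BCL2, which blocks apoptosis, read 74.3, 60.7 and 61.2 at 0 h and 228.5, 266.1 and 237.7 at 72 h on the probe set used, and its other probe set gave 0.07 and was not called. BAX, a pore-forming death protein, read 189.6, 192.1 and 282.1 at 0 h and 354.5, 492.7 and 253.9 at 72 h, with the groups overlapping and a change of 0.67 ± 0.18 (SE). BCL2L1 rose by 0.67, and MCL1 was at -0.03 and not called. BID (-0.37) and BIRC2 (-0.36) were among those that fell.

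Of secreted inflammatory and senescence-associated factors, 18 of 31 listed lay below the filter, among them IL6 and CXCL8. Of the 9 tested 2 were higher, GDF15 (1.54, from 7.93 to 53.5) and VEGFA (1.12), and 4 were lower. Besides IGFBP5 these were STC1, a stanniocalcin (-1.28), TIMP2, an inhibitor of matrix proteases (-1.16), and PLAUR, the urokinase receptor (-0.85). GDF15 began below the filter signal and passed the filter through the later times. The median of this list was 0.03 and turned negative under both other scalings (-0.09 and -0.10).

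The noradrenergic genes of the line rose or were not called. Of 18 tested of 26 listed, 13 rose, none fell and 5 were not called (median 0.45). With the arrays centred 9 were higher and 1 lower. ISL1, a homeobox factor of sympathetic neurons, read 289.5, 326.7 and 390.3 at 0 h and 1075, 1114 and 1264 at 72 h. HAND2 went from 89.6 to 207, a change of 1.08 ± 0.13 (SE). SCG2 and CHGB, proteins of secretory granules, rose by 1.70 and 1.10, and SOX11, of sympathetic progenitors, by 1.20. MYCN, the amplified oncogene of the line, read 4833, 4411 and 4429.9 at 0 h and 5511, 5479 and 4876 at 72 h (change 0.21 ± 0.08, adjusted p = 0.035). GATA3 was at 0.21 ± 0.08 (adjusted p = 0.038), and the calls of both MYCN and GATA3 were lost with the arrays centred. Without single arrays MYCN was not called in 4 of 6 cases (without replicates 2 and 3 of 0 h and 1 and 2 of 72 h, adjusted p = 0.10 to 0.12, limma). GATA3 was not called in 5 of 6, all but without replicate 2 of 72 h (0.058 to 0.14). PHOX2A was at -0.05 and CHGA at 0.24, neither of them called.

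Genes that mark the mesenchymal type of neuroblastoma and Schwann cells showed no common direction, 3 of 11 tested being higher, 3 lower and 5 not called. SNAI2, the factor Slug, fell by 1.30, from 616 to 247. VIM, vimentin, was called lower (-0.38 ± 0.09), but its other probe set was at -0.04 and not called. FN1, fibronectin, rose by 0.82, SOX9 by 0.73 and MAML2, a Notch coactivator, by 0.59. TWIST1 was at -0.10 and not called.

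Genes of the neuronal cytoskeleton and neurites rose more often than they fell. Of 30 tested 17 rose, 5 fell and 8 were not called (median 0.35), beside 32.8% of all genes higher and 22.7% lower. DCX read 106.9, 114.7 and 119.6 at 0 h and 1134, 1000.2 and 809.4 at 72 h, and its second probe set gave 2.73. MAPT, the microtubule protein tau, rose by 1.53, PRPH, the peripheral neurofilament protein, by 1.49 and CNTN1 by 1.38. NEFL, a neurofilament subunit, and L1CAM, an adhesion molecule of axons, rose by 1.29 and 1.20. STMN1, a tubulin-binding protein of dividing cells, changed by -1.02 and DPYSL2 by -0.83. TUBB3, the neuronal tubulin, was at -0.01 and not called.

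Of synaptic vesicle and exocytosis genes 18 of 27 tested rose, 10 by at least 1, and 3 fell (median 0.89). With the filter at the 75th percentile, which tests fewer genes, 7 were called higher. CADPS, a priming factor of dense-core vesicles, read 35.3, 28.1 and 31.4 at 0 h and 213.5, 203.3 and 196.6 at 72 h, with the 2 times apart. SYT4, a synaptotagmin of those vesicles, rose by 1.56, and RAB3B and RAB3C, small GTPases of exocytosis, rose by 1.34 and 1.23. SYT1 rose by 0.89. STX1A, a syntaxin of the fusion machinery, and SYN2, a synapsin, changed by -0.53 and -0.40. Of the genes listed, 8 lay below the filter.

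Voltage-gated channels and neurotransmitter receptors moved mostly up. Of 22 channel genes tested 15 rose, 3 by at least 1, and none fell (median 0.50), and with the arrays centred 12 were higher and 2 lower. The sodium channel genes SCN3B, SCN3A and SCN1A rose by 1.69, 1.46 and 1.05, and CACNA1B, the N-type calcium channel, by 1.0. Of 18 receptor genes tested 10 rose and 2 fell (median 0.55). GRIA2 and GRIA3, AMPA receptor subunits, rose by 1.62 and 1.26 and GLRB, the beta subunit of glycine receptors, by 1.11. CHRNA3, the nicotinic subunit of autonomic ganglia, was at 0.01 and not called. CHRNA5 changed by -0.76 and DRD2, a dopamine receptor, by -0.58. GABBR1 was called higher (0.90), and its other probe set (0.26) was not.

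Axon guidance genes rose more often than they fell. Of 33 tested 19 rose, 9 by at least 1, 3 fell and 11 were not called (median 0.42). Of all genes 32.8% were higher and 22.7% lower. UNC5C, a netrin receptor, read 102.3, 94.9 and 137.5 at 0 h and 657.9, 568.6 and 897.4 at 72 h. NRP1, a receptor of class 3 semaphorins and VEGF, went from 23.8 to 166, a change of 2.20. PLXNB2 and PLXNB1, semaphorin receptors that also stand in the p53 list, rose by 1.58 and 1.42. SLIT2, a repellent ligand, rose by 1.32. SEMA5A changed by -1.59, EFNB2 by -0.88 and UNC5B by -0.42. ROBO1 was at 0.00 and not called.

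Adhesion genes went both ways. Of 17 tested cadherins, protocadherins and catenins 10 rose and 5 fell (median 0.56). PCDH17 rose by 1.84, CDH6 by 1.52, CTNNA2, the neuronal alpha-catenin, by 1.34 and CDH2, N-cadherin, by 0.95. CTNNA1, the general alpha-catenin, read 740.0, 711.9 and 713.5 at 0 h and 225.7, 202.1 and 236 at 72 h, with a change of -1.64 ± 0.09 (SE). CTNNB1, beta-catenin, changed by -0.67 and PCDH19 by -1.35. So the 2 alpha-catenin genes moved in opposite directions on their probe sets.

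Of 30 tested collagen, laminin, integrin and proteoglycan genes 15 rose, 4 fell and 11 were not called (median 0.31). COL11A1, a fibrillar collagen, went from 60.6 to 337, COL6A1 rose by 1.28 and AGRN, agrin, by 1.08. COL1A1 was at 0.04 and SPARC at -0.02, neither of them called. ITGA4 fell by 0.82. Of the 10 fibroblast markers 5 lay below the filter, COL1A2, COL3A1, DCN, FAP and POSTN. The summed signal of all 10 was 1149 to 1443 at 0 h and 1500 to 1771 at 72 h. Among these markers LUM had the largest rise in mean signal, and PDGFRA, the brightest, went from 838.5 to 679.2. Of the 5 tested, THY1 and PDGFRB rose by 0.61 and 0.64, PDGFRA fell by 0.29 and COL1A1 was not called. LUM rose, with a mean going from 13.7 to 346. It began below the filter signal and passed the filter through the later times. The call of PDGFRA was lost after quantile normalisation, without the filter, without the variance trend and without 3 of the 6 arrays left out in turn (replicate 2 of 0 h and replicates 1 and 2 of 72 h, adjusted p = 0.059 to 0.17, limma). The part of these markers in the change of matrix genes was not tested.

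Receptor kinases and their ligands had no common direction. Of 23 tested 8 rose, 5 fell and 10 were not called (median 0.14), beside 32.8% of all genes higher and 22.7% lower. With the arrays centred 5 were higher and 6 lower. BDNF, a neurotrophin, rose by 1.23. FGFR2 changed by -1.81, PTN, the ligand pleiotrophin, by -0.99, KIT by -0.92 and GFRA1, the co-receptor of RET for GDNF, by -0.85. GFRA2 was at 0.04 and not called. In the insulin-like growth factor axis 6 of 13 tested rose, 2 fell and 5 were not called. IRS2, an adaptor of insulin signalling, rose by 0.96, IGF1R by 0.47 and IGF2BP2 by 0.68, the last with a second probe set at 0.28 that was not called. IGFBP5, one of the largest falls, which were chosen for arrays fully apart, read 636.3, 677.4 and 332.1 at 0 h and 51, 58.9 and 38.3 at 72 h.

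Notch genes were called higher in 10 of 19 tested, with 1 lower and 8 not called (median 0.50). NOTCH1 rose by 1.17, from 67.6 to 172, RFNG, a fringe glycosyltransferase, by 1.33 and MAML3 by 1.03. HES6, which counters other HES factors, fell by 1.05.

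Genes of ERK feedback and of the immediate early response rose more often than they fell. Of 27 tested 15 rose, 7 by at least 1, 2 fell and 10 were not called (median 0.49). Of all genes 32.8% were higher and 22.7% lower. DUSP6, a phosphatase of ERK, read 20.4, 20.3 and 52.5 at 0 h and 198.9, 178.4 and 237 at 72 h. SPRY2, a Sprouty inhibitor of receptor signalling, read 22.4, 29.4 and 85 at 0 h and 155.6, 136.2 and 363.7 at 72 h. The arrays of the 2 times were apart in both genes. ETV1 rose by 1.69 and DUSP4 by 1.45, and SPRED2, SPRY1 and SPRY4 rose by 1.20, 1.0 and 1.0. EGR1 was at 0.21 and JUN at 0.13, neither of them called, and NR4A2 fell by 1.35.

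B2M, the light chain of MHC class I, read 2801, 2756 and 2829.7 at 0 h and 727.7, 822.2 and 950.0 at 72 h, a change of -1.74 ± 0.08 (SE). Of 12 tested genes of MHC class I and peptide loading 3 were higher, 4 lower and 5 not called. PDIA3, a chaperone of peptide loading, was called lower (-0.59), with other probe sets at -0.12 to 0.04 that were not. PSME1 rose by 0.55. HLA-G was called higher (1.15, from 7.33 to 36.2), and RNA of near-identical HLA genes can share its probe set, so its identity is uncertain. It began below the filter signal and passed the filter through the later times. Of 12 tested interferon response genes 6 rose, 2 fell and 4 were not called. IFI44 fell by 2.26, from 1299 to 266, while IFITM2, ISG15 and IFITM1 rose by 1.34, 1.04 and 0.74. Another 16 of the 31 listed lay below the filter.

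Proteasome subunits fell together by moderate amounts. Of 28 tested 27 fell, 7 by at least 1, and none rose (median -0.65), with 23 lower after quantile normalisation. PSMD10, the chaperone gankyrin of proteasome assembly, fell furthest (-2.72) and read 682.5, 619.6 and 608.7 at 0 h and 86, 100.9 and 65.6 at 72 h. Its other probe set gave -2.56. PSMD14, the deubiquitinase of the lid, changed by -1.55, PSMC2 by -1.41 and PSMD11 by -1.22. PSMB5, a catalytic subunit, was at -0.10 and not called.

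Most splicing genes fell by small amounts, and most genes of the nuclear pore and transport fell, by up to 1.64. Of 36 splicing genes tested 27 fell, 2 rose and 7 were not called (median -0.36), none changing by 1 or more. HNRNPF changed by -0.78, HNRNPM by -0.61 and SNRPD1, a core protein of snRNPs, by -0.71. HNRNPD was called lower (-0.71), with 4 of its 5 other probe sets called lower and 1 called higher. Of 41 genes of the nuclear pore and transport 28 fell, 6 by at least 1, 3 rose and 10 were not called (median -0.49). NUP107 changed by -1.64, NUP62 by -1.38, CSE1L, the exporter of importin alpha, by -1.17 and NUP43 by -1.15. NUP210 rose by 0.64.

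Growth genes that MYC proteins activate fell mildly. Of 25 tested 14 fell, 2 rose and 9 were not called (median -0.30). CDCA7 changed by -1.34, RCC1, the exchange factor of Ran, by -0.79, TERT, telomerase, by -0.68 and RRS1, of ribosome assembly, by -0.56. Of 32 cytosolic ribosomal protein genes tested 10 were called higher, 1 lower and 21 not at all (median 0.19, or 0.07 with the arrays centred and 0.05 after quantile normalisation). Of all genes 32.8% were higher and 22.7% lower. RPL19 rose by 0.45, RPL3 by 0.36 and RPS12 by 0.35, and RPL9 fell by 0.86.

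Metabolic lists had medians near that of all genes. Of 35 oxidative phosphorylation genes tested 6 were higher and 11 lower (median -0.01), which became 13 and 7 after quantile normalisation and 3 and 13 with the arrays centred. NDUFA10 was called higher (0.61), with a second probe set at 0.10 that was not, and NDUFB10 and NDUFB6 changed by -0.49 and -0.48. ATP5F1C was called lower (-0.53), with 1 of its 3 other probe sets called higher. Of 30 glycolysis and hypoxia genes tested 8 rose and 11 fell, among them VEGFA (1.12), PDK1 (0.96), SLC2A3, a glucose transporter (0.85), and PKM, pyruvate kinase (-0.83). The other probe set of PKM was at -0.29 and not called. Of 20 sterol and fatty acid genes tested 2 rose and 5 fell, with IDI1 (-1.20), FDPS (-1.07) and ACLY (-0.81) lower and SREBF2 higher (0.77).

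Of 24 tested genes of the ATF4 amino acid response 13 fell, 4 rose and 7 were not called (median -0.29), and with the arrays centred none were higher. SLC7A5, an amino acid transporter, changed by -1.20, CEBPB by -0.87, WARS1 by -0.79 and PHGDH, of serine synthesis, by -0.71. Of 49 lysosome and autophagy genes tested 19 rose and 9 fell (median 0.14), beside 32.8% of all genes higher and 22.7% lower. With the arrays centred 10 rose and 9 fell. OPTN, an autophagy receptor, rose by 1.67 and GAA, an acid glucosidase, by 1.16, while GLA and GUSB, also lysosomal hydrolases, changed by -1.01 and -1.01. Of 15 genes of the small RNA machinery 7 rose and 2 fell. TNRC6C, a scaffold of silencing complexes, rose by 1.08, LIN28B, which blocks let-7 processing, by 0.71 and TUT4, a terminal uridylyltransferase, by 0.63. TNRC6A was called higher (0.68), but none of its 5 other probe sets was (-0.13 to 0.34).

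Reference genes fell or were not called. Of 12 tested 8 fell and none rose (median -0.25). GAPDH was at 0.05 ± 0.11 (adjusted p = 0.75) and ACTB at -0.16 ± 0.10 (adjusted p = 0.21), and PPIA and SDHA were at -0.06 and -0.01, none of them called by limma. ACTB was called lower with the arrays centred. B2M, HPRT1, a salvage enzyme (-1.12), and GUSB (-1.01) fell by at least 1, and POLR2A fell by 0.52.

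Markers of the labelled cell type were present at both times. Of the 14 noradrenergic markers 12 had a probe set naming them alone and 10 passed the filter. The summed signal of the 12 was 10749 to 11142 at 0 h and 13253 to 14187 at 72 h. Most of it came from MYCN (mean 4558 to 5289) and GATA3 (3232 to 3755). ISL1 went from 336 to 1151 and PHOX2A, the other way, from 1072 to 1044. TH, tyrosine hydroxylase, and TFAP2B lay below the filter. The summed signal of the 9 mesenchymal and Schwann markers with a probe set was 5951 to 6697 at 0 h and 4728 to 5237 at 72 h. Most of it came from VIM (mean 3979 to 3064), whose other probe set was not called, and FN1 rose (136 to 248). Sums of endothelial markers were 46.5 to 60.4 and 47.3 to 76.3, of immune markers 47.1 to 113.4 and 61.8 to 87.3, and of epithelial markers 32.4 to 49.1 and 37.9 to 69.2. In each of these 3 lists 1 marker was tested, PECAM1 (0.02), CD79A (0.03) and KRT8 (-0.01), and none was called.

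The paths from 0 h to 72 h differed between groups, and all comparisons with 0 h share the same 3 arrays. At 8 h 53 genes passed limma's test against 0 h, at 24 h 1584 and at 48 h 5175. The median change of the p53-induced genes was 0.09, 0.58, 0.95 and 1.24 at 8, 24, 48 and 72 h. That of the spindle genes was 0.17, 0.03, -1.28 and -2.46, and that of the replication genes 0.02, -0.12, -1.06 and -1.65. The histone genes were at -0.15, 0.15, 0.56 and 1.25, the synaptic genes at 0.10, 0.15, 0.36 and 0.89 and the proteasome genes at -0.02, -0.35, -0.52 and -0.65. SESN1 had means of 88.6, 117, 265, 381 and 436 at 0, 8, 24, 48 and 72 h. HMMR had means of 939, 813, 596, 158 and 28.5 at 0, 8, 24, 48 and 72 h. RET had means of 29.7, 22.7, 24.4, 133 and 539.6 at 0, 8, 24, 48 and 72 h. SESN1 was called higher at 24 h, at 1.41, while at that time HMMR (-0.65) and RET (-0.19) were not called.

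**Figure D4:**
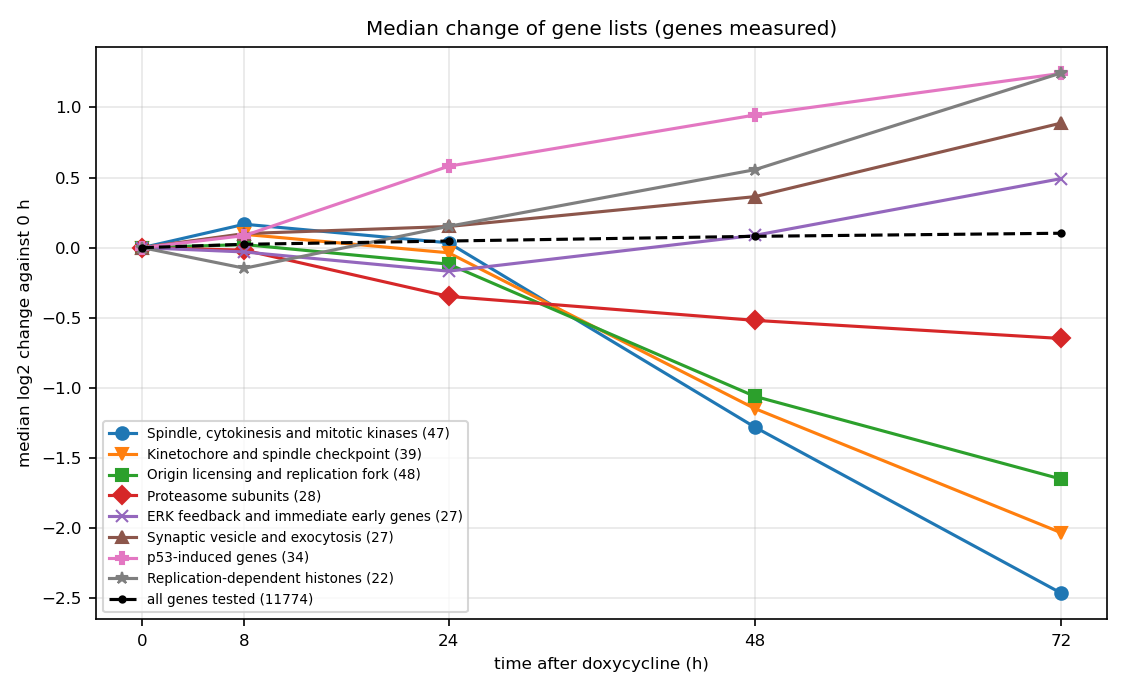
Median log2 change against 0 h of 8 gene lists and of all genes (dashed) at 8, 24, 48 and 72 h, by time in hours. The p53-induced genes reach 0.58 at 24 h, while the spindle genes are at 0.03 there and at -2.46 at 72 h.

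Between 48 h and 72 h 1258 genes passed limma's test (10.7%), 535 of them higher (4.54%) and 723 lower (6.14%). Of these genes 1153 were also called at 72 h against 0 h in the same direction and 6 in the opposite one. The largest falls of the last day were in LTF, lactotransferrin (-2.08), HMMR (-1.97), BIRC5 (-1.64), DLGAP5 (-1.62), NUF2 (-1.60), CDC20 (-1.59), NEK2 (-1.58) and ASPM (-1.58). HMMR was at -1.97 ± 0.22 (SE, adjusted p = 8.7e-06). Of the spindle genes 44 of 47 fell again in this interval, of the kinetochore genes 32 of 39 and of the replication genes 32 of 48, while none of these members rose.

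The largest rises of the last day were in RET (1.91 ± 0.30, adjusted p = 3.6e-04), P3H2, a collagen prolyl hydroxylase (1.73), SHISA2 (1.53), RGS16, a brake on G protein signalling (1.39), PMEL, a melanosome protein (1.33), H2BC12 (1.31), LUM (1.30) and CADPS (1.29). Of the histone genes 10 of 22 rose again, of the neuronal cytoskeleton genes 10 of 30 with 2 lower, of the synaptic genes 7 of 27 with 1 lower and of the p53-induced genes 7 of 34. CDKN1A was at 0.27 (adjusted p = 0.087) between these times. The count of 1258 genes was 746 without replicate 1 of 48 h, 656 without replicate 2 of 48 h and 767 without replicate 3 of 72 h.

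**Figure D5:**
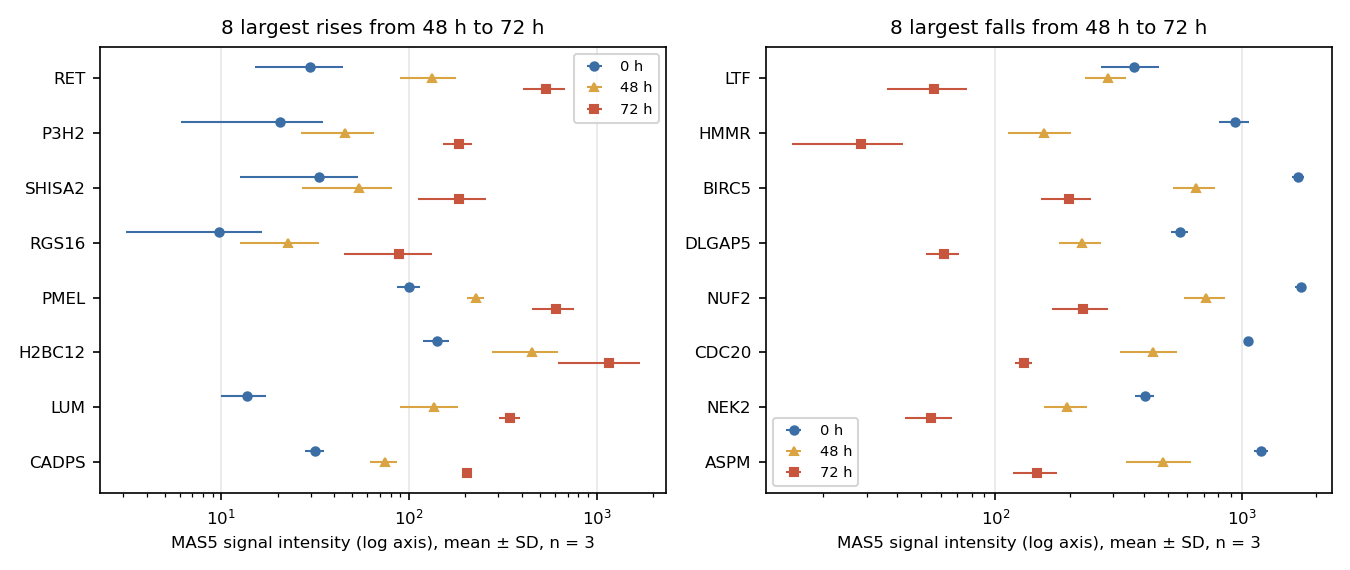
Mean signal intensity with SD (n = 3 arrays) at 0, 48 and 72 h, on a log axis, of the 8 genes with the largest rises and the 8 with the largest falls between 48 h and 72 h. LTF is near its 0 h level at 48 h and lower at 72 h, and the other falls are already lower at 48 h.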

How the data were processed

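Total RNA of the clone was measured on Affymetrix U133 Plus 2.0 arrays after 4 µg was labelled by the one-cycle protocol, per the labels' protocols, with cells grown in 10% fetal calf serum. The deposited values are linear signal intensities of 54675 probe sets that the authors made with MAS5 and GCOS, per the submitters' processing notes, with versions not given in the sources used here. They were used as deposited, since the trimmed mean (2% at each end) is about 100 on every array. After 62 controls were set aside, 41091 probe sets carried a single gene symbol, 1801 carried several and 11721 carried none. RefSeq held 41037 of the single-gene ones by gene ID. Values were taken as log2(value + 16), and a probe set entered if its mean over all arrays reached the median of those that are not controls (27307 did). The probe set with the highest mean stood for a gene, which left 11774 genes.

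All 15 arrays were fitted as 5 group means with limma 3.58.1 (lmFit, eBayes with trend) in R 4.3.3, which left 10 residual degrees of freedom, and contrasts of 72 h with 0 h and with 48 h were adjusted by Benjamini-Hochberg over all genes. The median standard error of a change was 0.12. The fit was tested on simulated data with 50 genes each changed by a log2 size of 0.25, 0.5, 1 or 2, far fewer than were called here. Of these 2, 22, 48 and 50 were recovered, beside 14 false calls, so small changes were mostly missed there. Tables and figures were made in Python 3.11.15 (matplotlib 3.10.9, pandas 2.3.3), and start-site windows came from RefSeq (GRCh38.p14).

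Members, gene lists and the rule for naming genes were chosen with earlier results of these data known. The rule names the 15 largest rises and falls at 72 h with the arrays of both times fully apart, the 8 largest each way against 48 h, up to 4 called members of each list with the largest change, and a set of sentinel genes. The sentinel IGF2 had no probe set that names it alone, and another sentinel is not reported here. All other genes printed, list members among them, were named after their values were seen.

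Equal replicate numbers did not pair the arrays of 72 h and 0 h by the rule used, which asks for a residual correlation over 0.1 in every pair (0.10, 0.06 and 0.23). Those of 72 h and 48 h met it (0.14, 0.12 and 0.35), as a hint from the data only. Replicate 1 of 72 h with replicate 2 of 48 h, whose numbers differ, gave 0.17, so the numbers of these 2 replicates are not set apart. The labels do not say what a number marks. Alternatives changed the pseudocount, the scaling, the filter, the probe set per gene, the variance prior, array weights, the arrays fitted and a replicate block, and each array was left out in turn.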

Additional observations from a re-analysis of the deposited data

Results flagged for a closer look

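Of the 1258 genes called between 48 h and 72 h, 6 moved against their own change from 0 h to 72 h, both contrasts passing limma's test, and are given here as values. DBH, which makes noradrenaline, had mean signals of 88.8, 365 and 144 at 0, 48 and 72 h and changed by -1.29 on the log2 scale over the last day (adjusted p = 3.5e-04, limma). ARHGAP36, a regulator of protein kinase A, had means of 403, 1016 and 679.7 at 0, 48 and 72 h and changed by -0.59 (adjusted p = 0.0072). SLC1A5, a glutamine transporter, had means of 553, 272 and 381 at 0, 48 and 72 h and changed by 0.45 (adjusted p = 0.021). DUSP3, a phosphatase, had means of 278, 163 and 224 at 0, 48 and 72 h and changed by 0.41 (adjusted p = 0.022). SAMD1, a chromatin protein, had means of 159, 93.7 and 128 at 0, 48 and 72 h and changed by 0.39 (adjusted p = 0.031). MBNL2, a splicing factor, had means of 58.3, 103 and 76.1 at 0, 48 and 72 h and changed by -0.37 (adjusted p = 0.046). All 6 lay between their 0 h and 48 h means at 72 h, as their choice by opposite signs requires. The contrasts share the 72 h arrays, and whether the early and the late effect differ was tested only through these 2 contrasts. The calls of DBH, DUSP3, SAMD1 and MBNL2 at 72 h against 0 h did not hold without single arrays or under some other settings, with values in the following part.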

How the results depend on the processing

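Genes higher by at least 1 were 964 with a pseudocount of 1 and 250 with 64, where all genes with an absolute change of at least 1 were 644. A filter at the 75th percentile, which tests fewer genes, gave 2524 higher genes, 805 with an absolute change of at least 1, 332 of them higher, 5 histone genes higher and 7 synaptic genes higher. Probe sets tested singly, which are more than genes, gave 12684 calls, 7410 higher and 5274 lower, of which 2237 changed by at least 1, 1139 higher and 1098 lower. The cause of these moves beyond the number tested was not tested. Each array of the 2 times compared, left out in turn, gave 5834 to 6296 calls at 72 h against 0 h. At 72 h against 48 h the range was 656 to 1148. The count there was 746 and 656 without replicates 1 and 2 of 48 h, and 767 without replicate 3 of 72 h. With the replicate number as a block 6878 genes were called at 72 h against 0 h and 1732 at 72 h against 48 h, and of the genes named only CCND1 changed its call. Without single arrays 45 or 46 replication genes, 25 or 26 recombination genes, 38 kinetochore genes, 46 spindle genes and 26 or 27 proteasome genes were lower, and 32 p53-induced, 16 or 17 histone and 17 or 18 synaptic genes were higher.

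Of 352 genes named, 342 kept their call with the arrays centred and 345 after quantile normalisation, where MCL1 turned from -0.03, not called, to 0.15 (adjusted p = 0.035, limma). Without single arrays 15 of these genes lost their call, with limma's adjusted p as follows. MYCN (0.10 to 0.12), GATA3 (0.058 to 0.14), PDGFRA (0.059 to 0.17) and UNC5B (0.090 to 0.15) also lost it without the filter and without the variance trend. TERT (0.055 to 0.11), DBH (0.059 to 0.16), DUSP3 (0.052 to 0.17), SAMD1 (0.052 to 0.155), MBNL2 (0.062 to 0.12), KLF6 (0.053 to 0.062) and SPRY4 (0.054 to 0.069) lost it without 2 to 4 of the 6 arrays. Replicate 1 of 72 h, whose omission ended most calls (11), alone decided RRS1 (0.053) and SIRT1 (0.060), replicate 3 of 72 h IRS2 (0.051), and replicate 3 of 0 h PSME1 (0.067). CCND1, CHGA, E2F3 and POLD2, not called as described, were called with array weights. DBH and MBNL2 were also lost with the arrays centred (0.065 and 0.22), MBNL2 and SAMD1 without the filter (0.056 and 0.060), DUSP3 and MBNL2 with the arrays of the 2 times only (0.056 and 0.055), and PDGFRA, MBNL2 and UNC5B after quantile normalisation (0.088, 0.18 and 0.061). Dim genes are limited by signal near the filter, and 71 rises by at least 1 began below it.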

Other observations

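Some genes outside the lists, named after their values were seen and not tested as a group, are given here with their changes at 72 h. NELL1, a secreted protein, went from 20.5 to 216 (log2 change 2.66), and ARC, a synaptic immediate early gene, went from 8.40 to 111 (2.43). ARC began below the filter signal and passed the filter through the later times. RUNDC3A rose by 2.45, DLGAP2, a postsynaptic scaffold, by 2.39, RIMBP2, of the presynaptic active zone, by 2.11 and ASTN1, an astrotactin of neuronal migration, by 1.95. ABAT, the transaminase that degrades GABA, went from 65.3 to 431 (2.45). CXCR4, a chemokine receptor, read 210.8, 214.4 and 322.8 at 0 h and 1406, 1178 and 1516 at 72 h, with no overlap. GRK5, a kinase of G protein-coupled receptors, rose by 2.19, MAP3K1 by 1.93, ENPP2, the autotaxin of lysophosphatidic acid synthesis, by 2.26 and PODXL, podocalyxin, by 2.27. KDM5B, a histone demethylase, went from 198 to 849 (2.01). SCRT1, a neuronal repressor, rose by 1.92, and by 1.24 between 48 h and 72 h.

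Among the falls outside the lists, DTL, a substrate receptor of the CUL4 ubiquitin ligase, changed by -2.45, DSCC1, a clamp loader subunit, by -2.48, MND1, a recombination factor, by -2.65 and DIAPH3, a formin of cytokinesis, by -2.61. CHRNA1, a subunit of the muscle acetylcholine receptor, went from 178 to 20.6 (-2.40). GPM6B, a proteolipid relative of GPM6A, went from 3322 to 635 (-2.36), against the rise of GPM6A (3.09). DBI, the acyl-CoA binding protein, went from 2399.6 to 455 (-2.38), with -0.08 over the last day. TOMM20, of the mitochondrial import receptor, changed by -1.76. All genes named in these paragraphs had 3 arrays at 72 h apart from the 3 at 0 h, which held for 61.4% of all genes.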
